A study of Mus musculus with 12 samples.

Results

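Expression of 8 transcriptional regulators of forebrain neurons, Bcl11a, Bcl11b, Satb1, Tbr1, Cux1, Cux2, Mef2c and Zmynd8, was followed in the mouse ventral hippocampus. They are 8 of the 13951 genes in the deposited table. The genes were listed by name, and Bcl11a and Zmynd8 entered the list because their values were lower in Angelman syndrome (AS) males. Their male values are therefore given as a description, with no test. Polyadenylated RNA was sequenced from ventral tissue of the right hippocampus of C57BL/6J mice aged 12 to 16 weeks. The 4 groups were wild-type (WT) females, AS females, WT males and AS males, with 3 mice in each and no treatment named. The labels give neither the mutation nor the allele that the AS mice carry, and they do not say which groups shared litters.

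In people, Angelman syndrome arises when neurons lose the active, maternally inherited UBE3A gene, whose product is a ubiquitin ligase. The regulators studied here help to set and keep the identity of neurons in the forebrain. BCL11A and BCL11B are related zinc finger proteins that act with the BAF chromatin remodelling complex, and in the neocortex they take part in the choice between types of projection neuron. SATB1 organises chromatin and TBR1 is a T-box factor of deep-layer neurons. CUX1 and CUX2 are homeobox factors of upper-layer neurons, MEF2C is a MADS-box factor that couples neuronal activity to synapse number, and ZMYND8 reads modified histones.

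All 8 genes are protein coding, and their positions are given on GRCm38. Bcl11a (ENSMUSG00000000861) spans chromosome 11, 24078056 to 24174123, on the plus strand. Bcl11b (ENSMUSG00000048251) lies on chromosome 12, 107910403 to 108003602, minus strand, and Satb1 (ENSMUSG00000023927) on chromosome 17, 51736187 to 51833290, minus strand. Tbr1 (ENSMUSG00000035033) and Zmynd8 (ENSMUSG00000039671) share chromosome 2, at 61802930 to 61814114 on the plus strand and at 165784152 to 165899016 on the minus strand. Cux1 (ENSMUSG00000029705) and Cux2 (ENSMUSG00000042589) share chromosome 5, at 136248135 to 136567490 and at 121856366 to 122050102, both on the minus strand. Mef2c (ENSMUSG00000005583) lies on chromosome 13, 83504034 to 83667080, plus strand. An annotated gene on the other strand overlaps 5 of the 8. None of the overlapping genes is in the deposited table, and whether reads were counted by strand is not given in the sources used here.

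The sequence just before a transcript start is shown for the 3 genes whose male libraries separated by genotype, Bcl11a, Zmynd8 and Cux2. The bases come from the RefSeq promoter table on GRCm38.p6, read 5′ to 3′ on the gene's strand up to 250 bases before the start, leaving out bases inside an annotated exon of any of the 8 genes. The Bcl11a start lies 25 bases from that of the annotated coding transcript Bcl11a-204, and the other starts match those of Zmynd8-205 and Cux2-202. Capitals mark matches on either strand to an E-box (CANNTG), a GC box (GGGCGG), a cAMP response element (TGACGTCA) or a TATA box (TATAAA).
Bcl11a (chr11:24080445-24080669, plus strand): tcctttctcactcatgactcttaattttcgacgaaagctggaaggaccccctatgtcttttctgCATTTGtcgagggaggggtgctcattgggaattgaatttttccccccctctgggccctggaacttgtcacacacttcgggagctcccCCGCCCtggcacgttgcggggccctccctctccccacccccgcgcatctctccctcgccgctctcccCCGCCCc
Zmynd8 (chr2:165858174-165858423, minus strand): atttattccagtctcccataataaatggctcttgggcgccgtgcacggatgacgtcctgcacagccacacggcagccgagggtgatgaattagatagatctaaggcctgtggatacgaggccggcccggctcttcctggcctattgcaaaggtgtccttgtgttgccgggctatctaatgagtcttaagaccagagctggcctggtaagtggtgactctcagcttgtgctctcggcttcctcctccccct
Cux2 (chr5:122049852-122050015, minus strand): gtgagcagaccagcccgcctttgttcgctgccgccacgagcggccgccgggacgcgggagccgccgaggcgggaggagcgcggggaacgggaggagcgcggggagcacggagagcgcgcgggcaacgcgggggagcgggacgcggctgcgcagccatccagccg
The Bcl11a stretch held 1 E-box match and 2 GC box matches, none of which overlap, while the stretches of Zmynd8 and Cux2 held none of the 4 motifs. Among 27025 genes with a window, the same 225 bases hold an E-box in 62.6% and a GC box in 29.3%. The shares were 66.0% and 32.9% over the 250 bases shown for Zmynd8, and 50.5% and 29.8% over the 164 bases shown for Cux2. In the order of those 3 lengths, the cAMP response element was held by 1.23%, 1.62% and 1.49% of genes and the TATA box by 11.1%, 13.0% and 8.73%. GC content was 60.4% for Bcl11a, 55.2% for Zmynd8 and 78.7% for Cux2, against a median of 52% over whole windows. These matches describe letters only.

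Levels are log2(abundance + 1), where abundance is the deposited value taken back from a natural log, and differences are on the same log2 scale. Read counts are not given, so the depth behind each value is unknown. Certain libraries stood apart in genes outside the list of 8. The library labelled WT female replicate 1 had an Xist level of 0.35 where the other 5 females had 6.00 to 6.44. Its levels of the Y-linked genes Eif2s3y (0.68) and Ddx3y (1.02) were also low, against at least 5.73 and 4.05 in males. The mean level of 16 choroid plexus markers was 3.11 to 5.26 in 4 libraries (WT female 1 and 2, AS female 2 and AS male 2) and 1.42 to 1.90 in the other 8. WT male replicate 2 stood apart in certain regional neuronal genes, which were picked because it differed in them. Lamp5, an interneuron and cortex marker, was at 5.38 there against at most 4.76 in the other libraries. Among the 14 interneuron markers, 4 were highest there, but Gad1 (7.08) and Gad2 (5.20) were the lowest of the 12 libraries. Among the 9 cortex, subiculum and amygdala markers, 3 were highest there, while Etv1 (4.74) and Fezf2 (4.01) were lowest. Fibcd1, a CA1 marker, was at 4.19 against at least 5.11, but Wfs1, another CA1 marker, was at 5.75 against at most 5.16. Among the 6 CA1 markers, 3 were highest there, and their mean of 4.39 was the highest of the 12 libraries. The mean of this library over 11 excitatory neuron markers, 6.65, was the highest of the 12 libraries, and 4 of the 11 were highest there. Their summed abundance there, 2660, was below the 2895 of AS female replicate 3. The mean of WT male replicate 2 over 9 cortex, subiculum and amygdala markers, 4.15, lay inside the range of the others. Its mean over 10 oligodendrocyte markers, 6.47, was above the 5.69 and 5.71 of the other WT males. AS female replicate 3 was higher, at 6.54. Ube3a was measured at 3.78 to 4.34 in all libraries. The labels do not give the mutation, so this level checks no label.

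The 8 regulators were all expressed, and all 8 passed the filter on low values. If the abundance is per length, which the sources do not state, Zmynd8 had the highest mean level over the 12 libraries, 5.26 ± 0.15 (SD, n = 12). Bcl11a (4.90 ± 0.14), Mef2c (4.82 ± 0.37) and Satb1 (4.71 ± 0.19) followed, and neighbours among them differed by less than their spread. Bcl11b (4.04 ± 0.14), Cux1 (3.84 ± 0.20) and Tbr1 (3.75 ± 0.28) came next and were likewise not separated from their neighbours. Cux2 was lowest at 2.53 ± 0.45. The steps from Zmynd8 to Bcl11a, from Satb1 to Bcl11b and from Tbr1 to Cux2 exceeded the larger SD of the pair.

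**Figure D1:**
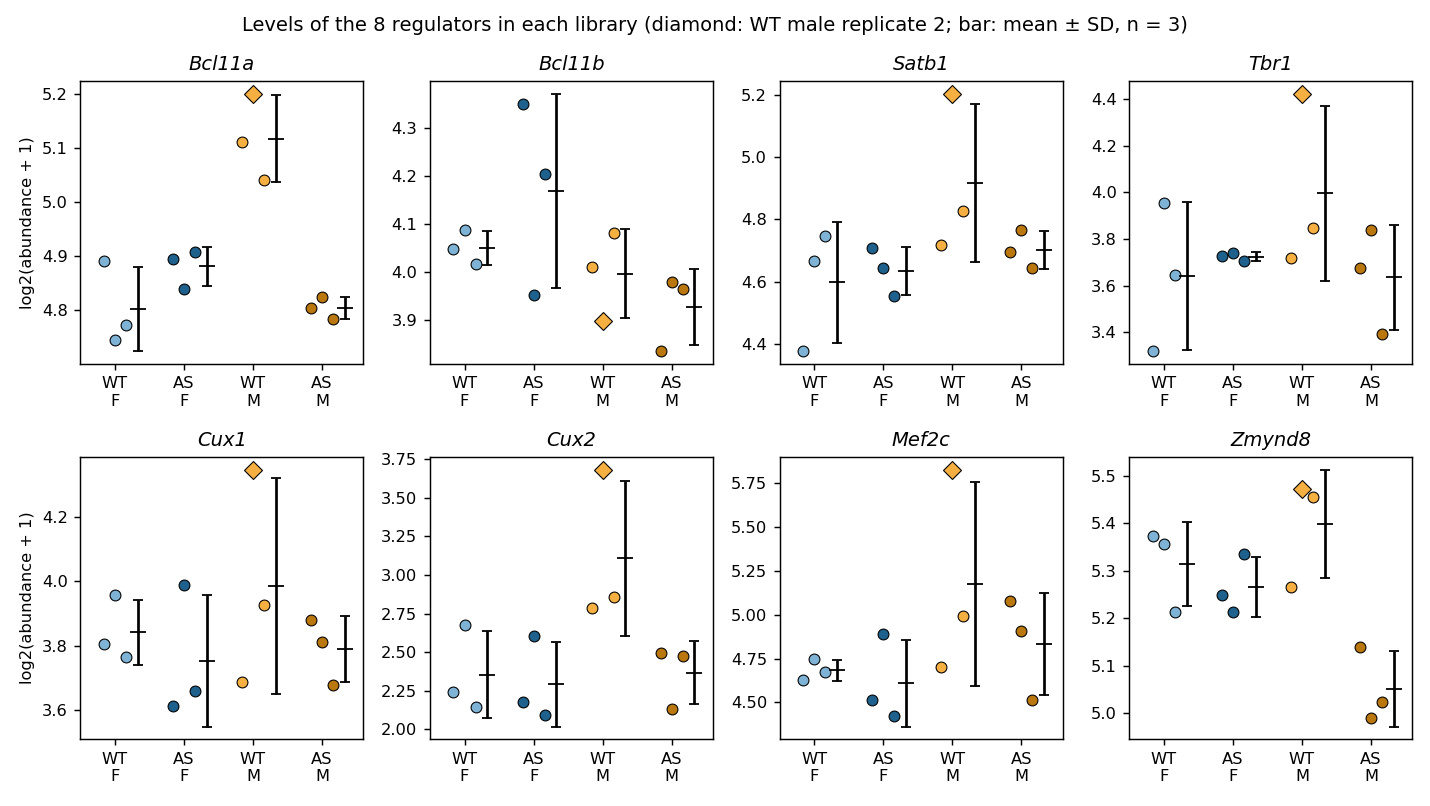
Level of each regulator, log2(abundance + 1), in every library of the 4 groups (F, female; M, male); points are libraries, the diamond is WT male replicate 2, the bar beside each group is the mean ± SD (n = 3), and each panel has its own axis. AS males lie below all 3 WT males for Bcl11a, Cux2 and Zmynd8, and WT male replicate 2 is the highest library for 7 of the 8 genes.

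In males, mean values of all 8 regulators were lower in AS than in WT mice, including the 6 that were not chosen for it. Over all 13858 genes tested, 47.6% were lower in AS males. The male libraries of the 2 genotypes did not overlap, with AS lower, for Bcl11a, Zmynd8 and Cux2. That is 1 of the 6 genes not chosen on the contrast, beside 5.18% of all genes tested. No regulator passed the test in any contrast with an adjusted p (limma, Benjamini-Hochberg), and in the male contrast 0% of all genes did. At an unadjusted p under 0.05 the male contrast held 890 genes (6.42%) and 1 of the 6, Cux2. In bulk tissue, fewer cells of a type and less RNA per cell cannot be told apart.

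Bcl11a, the zinc finger gene that heads the list, had levels of 5.11, 5.20 and 5.04 in WT males and of 4.80, 4.82 and 4.78 in AS males. In females it was at 4.89, 4.74 and 4.77 in WT and at 4.89, 4.84 and 4.91 in AS. The 3 WT males were the highest of all 12 libraries, and AS males lay within the range of WT females. Mean abundance was 33.7 ± 1.93 (SD, n = 3) in WT males and 26.9 ± 0.39 in AS males, a log2 difference of -0.31 ± 0.06 (SE). Without WT male replicate 2 it was -0.27 ± 0.07, and without the 4 libraries high in choroid plexus markers -0.32. In females, where the gene was not chosen, AS minus WT was 0.08 ± 0.06 (95% interval -0.06 to 0.21, limma adjusted p = 1.00), and 0.12 without the WT female library low in Xist.

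Zmynd8, the histone reader gene, was at 5.27, 5.47 and 5.46 in WT males and at 5.14, 4.99 and 5.02 in AS males. Female levels were 5.37, 5.36 and 5.21 in WT and 5.25, 5.21 and 5.34 in AS. Here AS males were the 3 lowest libraries of the 12, and WT males overlapped both female groups. Mean abundance was 41.3 ± 3.27 in WT males and 32.2 ± 1.84 in AS males, and the log2 difference was -0.35 ± 0.08 (SE), or -0.31 ± 0.08 without WT male replicate 2. Females differed by -0.05 ± 0.08 (95% interval -0.21 to 0.12, limma adjusted p = 1.00). Leaving out the 4 libraries high in choroid plexus markers turned the female difference to 0.080. That setting leaves WT female replicate 3 as the only WT female library.

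Among genes lower in AS males, ordered by the size of the difference relative to its error, Bcl11a came 4 and Zmynd8 came 5. Ogdhl, just above them, differed by -0.33, and Ap4m1, just below, by -0.30. These values chose the genes and are given as a description only. The male minus female difference of the genotype effect was -0.39 ± 0.09 (SE) for Bcl11a and -0.30 ± 0.11 for Zmynd8, also with no test.

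Cux2, a homeobox gene of upper-layer neurons and the least expressed of the 8, had the largest male difference among them. Its levels were 2.78, 3.68 and 2.85 in WT males and 2.49, 2.13 and 2.47 in AS males. Female levels were 2.24, 2.67 and 2.15 in WT and 2.18, 2.60 and 2.09 in AS. WT males were above all other 9 libraries, and AS males lay inside the female range. The male difference was -0.74 ± 0.24 (SE, 95% interval -1.26 to -0.22), with an unadjusted p of 0.00963 in limma and an adjusted p of 0.748, so it did not pass. An exact permutation test, two-sided, gave p = 0.1, the smallest that 3 against 3 libraries allow. WT male replicate 2 moved the value by more than 1.5 times: without it the difference was -0.45 ± 0.20, with an adjusted p of 0.999. Female AS and WT mice differed by -0.06 ± 0.24 (adjusted p = 1.00, limma), and the interaction of genotype and sex, -0.68 ± 0.34, had an adjusted p of 0.987 in limma and was -0.39 without WT male replicate 2. Cux1, its paralog, was at 3.69, 4.35 and 3.93 in WT males and at 3.88, 3.81 and 3.68 in AS males, which overlap. Its male difference of -0.20 ± 0.15 became -0.016 without WT male replicate 2.

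Mef2c, the activity-coupled factor, showed the widest spread among WT males after log2 scaling, at 4.70, 5.82 and 4.99, against 5.08, 4.91 and 4.51 in AS males. The high value is again WT male replicate 2, and the groups overlap. The male difference was -0.34 ± 0.24 (SE, limma adjusted p = 0.828) and -0.016 ± 0.17 without that library. Tbr1, the T-box gene, was at 3.72, 4.42 and 3.85 in WT males and at 3.68, 3.84 and 3.39 in AS males. Its difference was -0.36 ± 0.19 (limma adjusted p = 0.785), or -0.15 without replicate 2. Satb1, the chromatin organiser, was at 4.72, 5.20 and 4.83 in WT males and at 4.70, 4.77 and 4.64 in AS males. The difference of -0.21 ± 0.12 (limma adjusted p = 0.808) became -0.072 without replicate 2.

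Bcl11b, the paralog of Bcl11a, was at 4.01, 3.90 and 4.08 in WT males and at 3.84, 3.98 and 3.96 in AS males, so WT male replicate 2 was its lowest WT male. The male difference was -0.07 ± 0.10 (SE, limma adjusted p = 0.930), and it ran from -0.12 without WT male replicate 2 to -0.025 without AS male replicate 1. Female levels of 4.05, 4.09 and 4.02 in WT and 4.35, 3.95 and 4.20 in AS gave 0.12 ± 0.10 (limma adjusted p = 1.00). That value was 0.027 without AS female replicate 1 and 0.23 without AS female replicate 2. Leaving out the 4 libraries high in choroid plexus markers, with WT female replicate 3 as the only WT female left, gave 0.26. The highest of the 12 libraries was AS female replicate 1.

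WT male replicate 2 was the highest of the 12 libraries for 7 of the 8 regulators, and for 5 of the 6 not chosen on the male contrast, beside 12.7% of all genes tested. Its gap to the next library was 0.83 for Cux2, 0.75 for Mef2c, 0.47 for Tbr1, 0.37 for Satb1 and 0.36 for Cux1, but 0.09 for Bcl11a and 0.017 for Zmynd8. Over the 6 genes not chosen on the contrast, the median male difference was -0.28, and -0.096 without this library, while the median over all genes tested was 0.0080. All 6 remained below 0 without it, with differences as small as -0.016. Without it the male groups did not overlap, with AS lower, for Cux2 and Bcl11b, 2 of the 6 genes not chosen on the contrast, beside 8.57% of all genes, and for the 2 chosen genes. This library also carried the Lamp5 and Fibcd1 values given above, and their part in the differences was not tested.

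**Figure D2:**
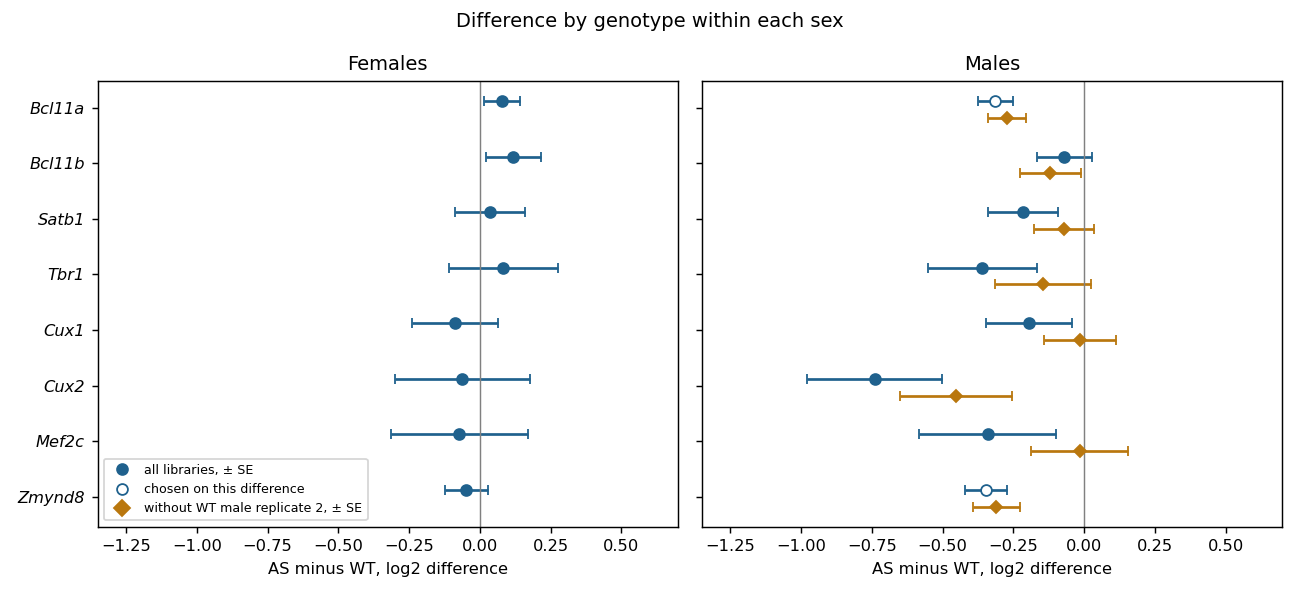
Log2 difference, AS minus WT, of each regulator in females (left) and males (right), with ± SE bars from limma; filled circles use all libraries, open circles mark the genes chosen on that male difference, and diamonds leave out WT male replicate 2. Female values lie on both sides of 0 within 0.12, and the male values of Mef2c and Cux1 move to -0.016 without that library.

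In females the regulators were split, 4 higher and 4 lower in AS (48.4% of all genes were lower), with differences from -0.09 ± 0.15 for Cux1 to 0.12 ± 0.10 for Bcl11b. Groups did not overlap for 0 of the 8, beside 9.01% of all genes in either direction. None passed in limma, where 0% of genes had an adjusted p under 0.05 and 438 genes (3.16%) an unadjusted p under 0.05, none of them a regulator. The median was -0.0058 over the 8 genes and 0.0048 over all genes tested. Satb1 was at 4.38, 4.67 and 4.75 in WT females and at 4.71, 4.64 and 4.55 in AS females. The lowest of these, 4.38, is WT female replicate 1, in which Xist was low. Without that library the Satb1 difference went from 0.04 to -0.073 and the Tbr1 difference from 0.08 to -0.077. Tbr1 was at 3.32, 3.96 and 3.65 in WT females and at 3.73, 3.74 and 3.70 in AS females, a narrow group inside the WT range. Cux1 was at 3.81, 3.96 and 3.76 in WT females and at 3.61, 3.99 and 3.66 in AS females. Mef2c was at 4.63, 4.75 and 4.67 in WT females and at 4.51, 4.89 and 4.43 in AS females, so for both genes AS female replicate 2, a library high in choroid plexus markers, was the highest female. Averaged over both sexes, AS minus WT was -0.40 ± 0.17 (SE) for Cux2 (limma unadjusted p = 0.0358, adjusted p = 0.905), and -0.26 without WT male replicate 2. The genotype differences in the 2 sexes share no library, but their errors and p-values come from the same model fitted over all 12 libraries. Leaving out WT male replicate 2 took the female SE of Mef2c from 0.24 to 0.15. The interaction of genotype and sex passed for none of the 6 genes on which it could be tested, with adjusted p of at least 0.987 in limma.

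Males had higher mean levels than females for 5 of the 6 genes not chosen on the contrast, the exception being Bcl11b at -0.15 ± 0.07 (SE). The share of all genes higher in males is not given here, so this count is a description. Without WT male replicate 2 the sex difference of Cux1 went from 0.09 to 0.00037 and that of Tbr1 from 0.13 to 0.026. Over both genotypes, Cux2 was higher in males by 0.41 ± 0.17 (unadjusted p = 0.0311) and Satb1 by 0.19 ± 0.09 (unadjusted p = 0.0482). Neither passed, as the smallest adjusted p among them was 0.699 in limma. Unadjusted p under 0.05 was reached by 2 of the 6, beside 6.91% of all genes, and 5 genes (0.0361%) were called by sex. Without WT male replicate 2 these differences were 0.27 and 0.12, and they were 0.39 and 0.14 when the Xist-low WT female was left out. For Cux2 the sex difference was 0.75 in WT mice, or 0.47 without WT male replicate 2, and 0.08 in AS mice. The male groups enter both this comparison and the genotype comparison above.

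The regulators were also compared in pairs, by their deviations from the group means over the 12 libraries. Pearson's r was 0.57 to 0.95 in the 10 pairs among Satb1, Tbr1, Cux1, Cux2 and Mef2c, genes set together after their r had been seen. None of the 28 pairs among the 8 genes had an adjusted p under 0.05 by exact permutation of libraries within groups, two-sided and adjusted over the 28 pairs. For Cux1 and Mef2c, r was 0.95 (p = 0.00309, adjusted p = 0.0864, exact permutation) and Spearman's rho 0.91 (p = 0.00694, adjusted p = 0.0972). Leaving out the 2 libraries farthest from the median of Cux1, r was 0.89. For Tbr1 and Mef2c, r was 0.77 (p = 0.0100, adjusted p = 0.0972, exact permutation) and rho 0.82 (p = 0.00154, adjusted p = 0.0432), the only pair below 0.05 by rho. Leaving out the 2 libraries farthest from the median of Tbr1, r was 0.72.

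WT male replicate 2 weighed on these relations. Without it, r in the 10 pairs ran from 0.039 for Satb1 and Cux2 to 0.88 for Cux1 and Mef2c. Bcl11a and Satb1 went from an r of 0.06 to -0.72 (adjusted p = 0.468, exact permutation). For Bcl11b with Cux1, Cux2 and Mef2c, r was -0.65, -0.57 and -0.60 over all 12 libraries (adjusted p = 0.245, 0.266 and 0.245, exact permutation) and -0.61, -0.48 and -0.56 without that library. Bcl11a and Zmynd8, both lower in AS males by choice, had an r of 0.28 within groups (p = 0.519, adjusted p = 0.764, exact permutation). Their rho was 0.38 (p = 0.315, adjusted p = 0.579), and r was -0.09 without the 2 libraries farthest from the median of Bcl11a.

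**Figure D3:**
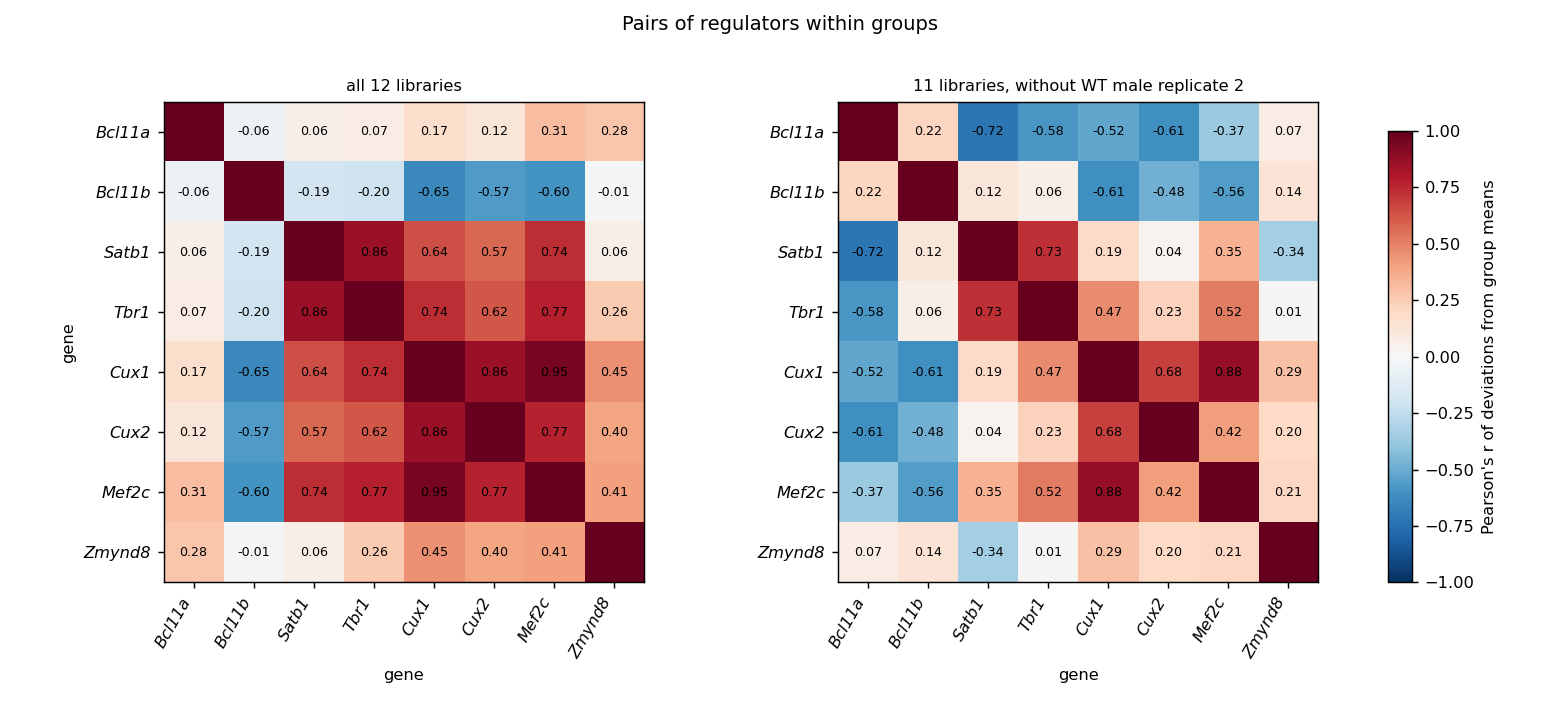
Pearson's r of deviations from group means for each pair of regulators, over all 12 libraries (left) and over 11 without WT male replicate 2 (right); colour and number give r. The block of Satb1, Tbr1, Cux1, Cux2 and Mef2c holds r of 0.57 to 0.95 on the left and 0.039 to 0.88 on the right.

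The genes whose levels followed Bcl11a most closely over the 12 libraries were Yjefn3 (r = 0.93), Spag5 (0.91), Tmem25 (0.90), Sirt4 (0.90) and Ldlrad4 (0.89). Measured on deviations from group means they were Ldlrad4 (0.98), Arpc3 (0.93), Pde6d (0.92), Tigar (0.91) and Prickle2 (0.90). Ldlrad4 was the gene found by both measures. For Zmynd8 the closest over the 12 libraries were Cdkal1 (0.90), Rab42 (0.90), Rasd1 (0.88), Smarca4 (0.86) and Hapln4 (0.85). On deviations they were Tgfbr3l (0.97), Afg3l2 (0.96), Nphp4 (0.94), Zfp781 (0.90) and Vapb (0.90). Predicted or unnamed genes were passed over, which left out 1 gene in the last of these lists. Smarca4 encodes an ATPase of the BAF complex. All of these were picked from 13858 genes for their likeness and share the same libraries, so the r values are a description.

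Genes that work with the regulators were compared by counts, and no member of any list below passed in either sex (limma, adjusted p). That statement leaves out Bcl11a in males, which is in the TBR1 list but was chosen on its male values. Of 28 tested BAF subunits, 16 were higher and 12 lower in AS males, with a median difference of 0.0025. Brd9, a BAF bromodomain subunit, had the smallest p in this list at -0.24 ± 0.08 (SE, adjusted p = 0.748). Of 15 subunits of NuRD, a deacetylase complex that also binds BCL11 proteins, 7 were higher and 8 lower in AS males. The histone-binding subunit gene Rbbp7 was higher by 0.23 ± 0.06 (unadjusted p = 0.00399, adjusted p = 0.748). The 7 ZMYND8 partners split 3 higher and 4 lower in males. In females the BAF and NuRD lists had medians of 0.024 and -0.025.

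Of 38 other projection neuron transcription factors, 35 were tested, 18 higher and 17 lower in AS males and 20 higher and 15 lower in AS females, with medians of 0.0006 and 0.044. Without WT male replicate 2 the male counts were 16 and 19. The medians over all genes tested were 0.0080 in males and 0.0048 in females. Of 7 paralogs of the regulators, 4 were tested, 2 higher and 2 lower in AS males, with or without WT male replicate 2. That library was the highest for 2 of the 4, and its mean over the list, 5.27, was the highest of the 12 libraries. The male groups did not overlap, with AS lower, for 1 of the 4, beside 5.18% of all genes tested. Mef2d differed by -0.16 ± 0.07 in males, with an adjusted p of 0.763 in limma. Zmynd11 and Mef2a differed by 0.08 and 0.03 in males.

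The 4 class IIa histone deacetylases, which bind and restrain MEF2 proteins, were all lower in AS males, from -0.04 for Hdac9 to -0.26 for Hdac7, and 3 of the 4 were lower in AS females. Without WT male replicate 2 the male difference of Hdac9 was 0.020, and 3 of the 4 were lower. Of 10 reported MEF2 targets in neurons, 3 were higher and 7 lower in AS males, or 5 and 5 without that library. Bdnf, a neurotrophin gene, was higher by 0.32 ± 0.11 (SE, adjusted p = 0.748) and Arc, an activity-induced synaptic gene, differed by -0.47 ± 0.30 (adjusted p = 0.818), or by -0.24 without it. Of the 7 genes listed as TBR1 partner or reported targets, 4 were higher and 3 lower in males, or 3 and 4 without WT male replicate 2. The lower genes include Bcl11a, which was chosen for its low values in AS males. Reln, a reported TBR1 target that interneurons also express, differed by -0.35 ± 0.15 in males and -0.39 ± 0.15 in females, with adjusted p of 0.763 and 1.00 in limma. Its male difference was -0.19 without WT male replicate 2.

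Cell type markers were set beside these values. Of 11 excitatory neuron markers, 9 were higher in AS females and 9 lower in AS males, with medians of 0.07 and -0.09. Group means of the list ran from 6.29 ± 0.07 (SD, n = 3) in AS males to 6.44 ± 0.18 in WT males. Without WT male replicate 2 the WT male mean was 6.33, below the 6.40 of AS females, the median male difference of the list was -0.034, and 8 of the 11 were lower. The mean of 6 CA1 markers was 4.21 to 4.39 in WT males and 3.99 to 4.13 in AS males, which do not overlap. Taken singly, 1 of the 6 separated the male groups with AS lower, beside 5.18% of all genes tested. The mean of the 4 tested paralogs of the regulators did not overlap either, at 4.91 to 5.27 in WT and 4.88 to 4.90 in AS males. Of the CA1 markers, 5 of 6 were lower in AS males with a median of -0.17, or 6 of 6 with a median of -0.14 without WT male replicate 2. Of 7 CA3 markers, 6 were higher in AS males with a median of 0.11, and their list means of 4.89 to 5.05 in WT and 4.97 to 5.24 in AS males overlap. The part of these markers in the regulators' values was not tested. Slc17a7, the vesicular glutamate transporter of these neurons, lay between 8.39 and 8.84 in all libraries. Of 14 interneuron markers, 13 were lower in AS females and 8 in AS males. Without WT male replicate 2, 11 were lower in AS males. The female groups did not overlap, with AS lower, for 8 of the 14, beside 4.02% of all genes tested. Among 10 oligodendrocyte markers, 8 were higher in AS males with a median of 0.08, or 10 with a median of 0.34 without WT male replicate 2. All 10 were higher in AS females. Of 16 choroid plexus markers, 15 were higher in AS males, where AS male replicate 2 was the library high in them, with a summed abundance of 84.6 to 902 in AS males and 80.4 to 153 in WT males. None of the 16 was higher in AS females. Without AS male replicate 2 the male differences were -0.32 for Bcl11a, -0.32 for Zmynd8 and -0.62 for Cux2. With the mean of 9 cortex, subiculum and amygdala markers as a covariate they were -0.33, -0.36 and -0.74. With that covariate the male differences of Satb1, Tbr1 and Mef2c were -0.16, -0.32 and -0.29, against -0.21, -0.36 and -0.34 without it. Those of Cux1 and Bcl11b were -0.19 and -0.076, against -0.20 and -0.070.

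**Figure D4:**
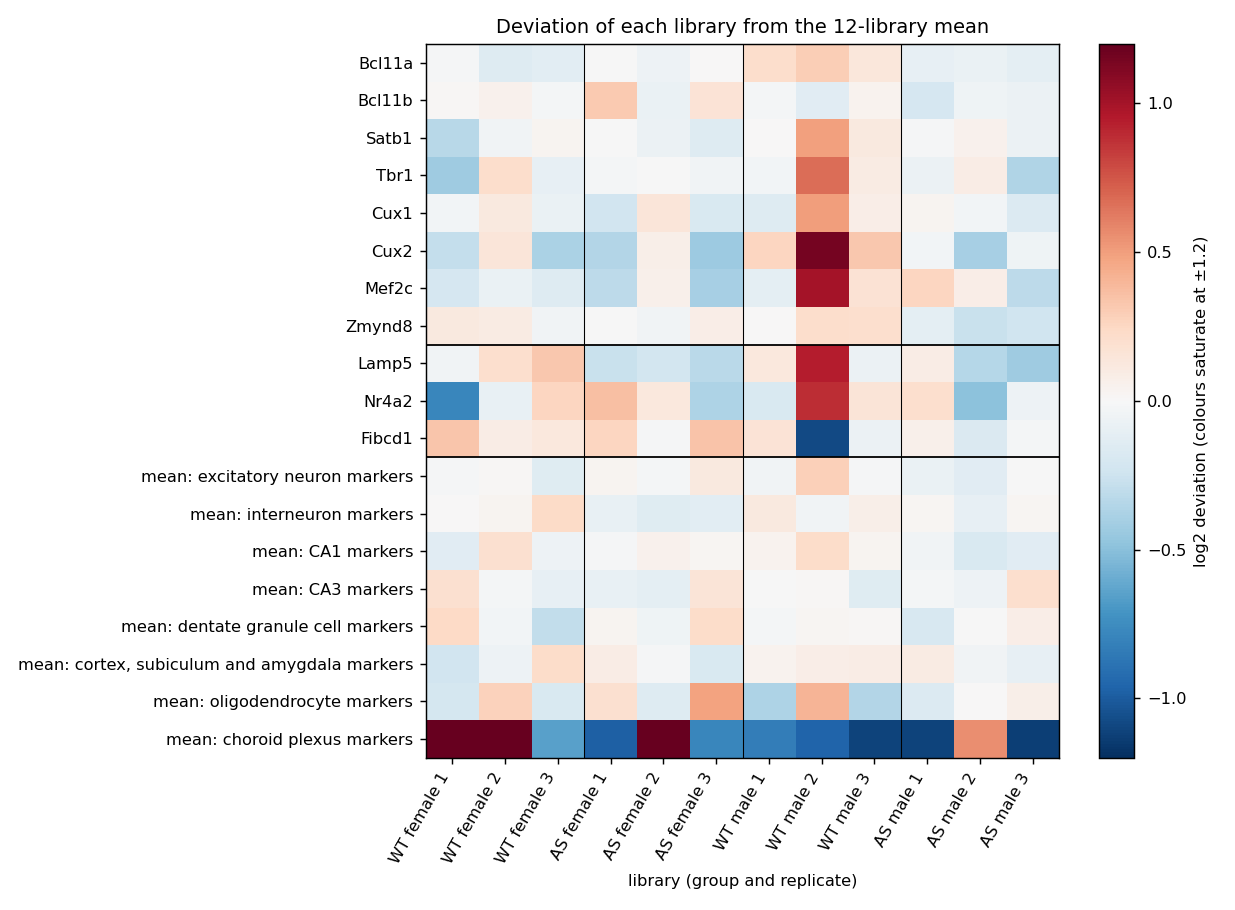
Deviation of each library (columns) from the 12-library mean, in log2 units, for the 8 regulators (top), for 3 genes in which WT male replicate 2 stood apart (middle) and for means of marker lists (bottom); colours saturate at 1.2. WT male replicate 2 is high for Cux2, Mef2c and Lamp5 (5.38) and low for Fibcd1 (4.19), though its CA1 marker mean (4.39) is the highest. Choroid plexus markers are high in 4 libraries.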

How the data were processed

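One polyadenylated RNA library per mouse was made from ventral tissue of the right hippocampus. Per the submitters' processing notes, the tools were Trimmomatic, Bowtie2 and RSEM and the build GRCm38 (mm10), with no versions. The deposited table holds 13951 genes in 12 columns, with values from 0.100 to 10.08 that were read as the natural log of an RSEM abundance plus 1. The log base, the added constant, and whether the authors used TPM or FPKM are not given in the sources used here. Values between 2 and 5 of one library recur in all 12 (100%), so the middle of the range behaves as quantile normalized.

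Values were converted to log2. The 93 genes whose abundance averaged less than 1 were not tested, leaving 13858. One model of 4 group means was fitted over 12 libraries (limma 3.58.1, R 4.3.3), using a variance trend and 8 residual degrees of freedom, and p-values were adjusted by Benjamini-Hochberg over all genes, with a threshold of 0.05. The labels say that each group had 3 mice. They do not tie libraries to litters, and p-values measure the spread between these libraries. Scripts were tested on simulated data. Pairs of genes were tested by all 1296 orders of libraries within groups. All 8 regulators are named. For other lists, up to 4 tested genes with the smallest unadjusted p in either sex were eligible, and some of these are named. The regulators, lists and alternatives were chosen with earlier results of these data known. Base 2 logs would make each log2 difference smaller.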

Additional observations from a re-analysis of the deposited data

Results flagged for a closer look

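For Bcl11a, AS libraries were above the WT mean in 3 of 3 females and below it in 3 of 3 males. The female difference, 0.08 ± 0.06, did not pass (limma adjusted p = 1.00), and the female groups overlap. The interaction of genotype and sex was -0.39 on the log2 scale. This difference was not tested, because the gene was chosen for its low values in AS males. Tbr1 had the same counts, and its interaction of -0.44 had an adjusted p of 0.987 in limma.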

How the results depend on the processing

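Over the 32 differences of the regulators that were tested, 672 of 686 alternative values kept their direction, 14 reversed and 0 passed an adjusted p under 0.05. Over the 8 given with no test, for Bcl11a and Zmynd8, 164 of 170 moved by less than the spread between replicates, 6 moved by more and 0 reversed. Without the libraries high in choroid plexus markers the female differences of Satb1 and Zmynd8 were -0.12 and 0.080, with a single WT female library left. With the mean of these markers fitted as a covariate, those of Cux2 and Mef2c were 0.035 and 0.0013. On leaving out each library in turn, female differences ran from -0.073 to 0.11 for Satb1, -0.077 to 0.24 for Tbr1, -0.22 to 0.097 for Cux2 and -0.21 to 0.018 for Mef2c. The difference over both sexes ran from -0.021 to 0.078 for Bcl11b, and the interaction from -0.26 to 0.073 for Cux1 and -0.50 to 0.057 for Mef2c. Genes called were 0 in females, males, both sexes and the interaction and 5 by sex. Without the libraries high in choroid plexus markers they were 5, 1, 2, 2 and 12. Without 1 library at a time they ran from 0 to 1, 0 to 1, 0 to 2, 0 to 1 and 4 to 8. At a mean abundance of at least 5, the sexes differed in 3 genes. By Spearman's rho, 1 pair of regulators passed. Read as base 2 logs, the male differences of Bcl11a and Zmynd8 were -0.22 and -0.24. The cause of these shifts was not tested. The cortex covariate, and the lists and pairs without WT male replicate 2 were added after the data were seen. No paired analysis was possible because the replicate numbers follow accession order and pair no libraries. Unknown depth limits what can be said of low levels such as that of Cux2.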
